A study of Mus musculus with 12 samples.

Results

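The respiratory chain and ATP synthase genes are the genes for the subunits of the 5 complexes of oxidative phosphorylation. Their mRNA was measured here in 4 fractions of monocytes and macrophages (Mo-Macs) sorted from inflamed mouse ear skin. Members were the gene symbols of complex I (NADH dehydrogenase; Nduf followed by a, b, c, s or v and a digit, and mt-Nd), complex II (succinate dehydrogenase; Sdha to Sdhd), complex III (cytochrome bc1; Uqcr and mt-Cytb), complex IV (cytochrome c oxidase; Cox4 to Cox8 and mt-Co) and complex V (ATP synthase; Atp5 and mt-Atp). Of 113 symbols that fitted, 13 carrying "-ps" were left out as pseudogenes. Cox7b2 and Cox8b were left out because they had 2 and 25 counts in all. The remaining 98 of the 37775 symbols in the table each had at least 50 counts over the 12 libraries. They were 85 genes of the nuclear genome and 13 genes of the mitochondrial genome (symbols beginning mt-), and all 98 passed the filter on low counts.

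The study followed how monocytes turn into macrophages in IgE-mediated chronic allergic inflammation (IgE-CAI). Wild-type BALB/c mice (male and 7 to 12 weeks old in the study's methods) received 300 μg of IgE against the hapten TNP by vein, and 1 ear was challenged a day later with 10 μg of TNP-conjugated ovalbumin injected into the skin. The ears were digested on day 5, and Mo-Macs were sorted into 4 fractions of 3 libraries each. These were Classical mono (Ly6ChiPD-L2lo, classical monocytes), Early CMDM and Late CMDM (Ly6ChiPD-L2hi and Ly6CloPD-L2hi, earlier and later classical monocyte-derived macrophages) and Resident-like (Ly6CloPD-L2lo, macrophages resembling those resident in skin). All 4 fractions had the same genotype, challenge and day, and the labels set them apart by the gate alone. A library held mRNA selected with oligo(dT) from 5000 to 80000 cells. Since the labels do not tie libraries to separate animals, p-values measure the spread between these libraries, which may be technical.

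As background, complexes I and II pass electrons from NADH and succinate to ubiquinone. Complex III hands them to cytochrome c, complex IV reduces oxygen with them, and complex V makes ATP from the proton gradient that complexes I, III and IV build. Most subunits are encoded in the nucleus, made in the cytosol and imported. A small set of hydrophobic core subunits is transcribed from mitochondrial DNA as long polycistronic RNA and translated on mitochondrial ribosomes, and complex II is entirely nuclear. Macrophages activated by type 2 cytokines are known for relying on oxidative phosphorylation, and macrophages activated by bacterial products for glycolysis.

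The libraries held 12537178 to 19844113 counts. All 7 Mo-Mac marker genes checked (Lyz2, Csf1r and others) were detected. Their summed levels were 6585 to 8663 CPM (counts relative to library size, with library sizes scaled by the trimmed mean of M values, TMM) in Classical mono, 2716 to 3904 in Early CMDM, 6708 to 7751 in Late CMDM and 9354 to 10354 in Resident-like. Gene by gene, by the test described below, 0 of the 7 were higher and 3 lower in Early CMDM against Classical mono (median log2 fold change -0.29). In Late CMDM 4 were higher and 1 lower (0.93), and in Resident-like 3 and 0 (0.38). RNA of other skin cells was also present. A list of 6 keratinocyte genes summed to 17096 to 27284 CPM in Early CMDM against 1871 to 4049.9 in Classical mono, 3106 to 3647 in Late CMDM and 2298 to 2615 in Resident-like. A list of 6 fibroblast genes summed to 3254 to 5588 CPM in Classical mono, 2988 to 4205 in Early CMDM, 478 to 499 in Late CMDM and 276 to 358 in Resident-like. In such bulk libraries, fewer cells of a type and less RNA per cell cannot be told apart. Resident-like replicate 1 had the lowest of its fraction's 3 values for 68 of 85 nuclear and 13 of 13 mitochondrial-genome members. Classical mono replicate 3 was lowest in its fraction for 60 of 85 and 11 of 13. In the CMDM fractions, Early CMDM replicate 1 was lowest for 54 of 85 nuclear members and Late CMDM replicate 2 for 51. Early CMDM replicate 2 was highest for 54 of 85 and Late CMDM replicate 3 for 56. Late CMDM replicate 1 was highest for 12 of 13 mitochondrial-genome members.

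Promoter sequence is shown first, because the nuclear subunits are a textbook case of genes that share promoter motifs. Promoter windows of 300 bases (250 before to 50 after the annotated start; RefSeq, GRCm38.p6) were at hand for 66 of the 85 nuclear members. The 4 motifs searched, on both strands, were GCATGCGC for NRF1, CCGGAAG for GABPA and other ETS factors, AAGATGGC for YY1 and AAGGTCA for the estrogen-related receptors (ERR). The last 3 letters of the ETS motif are the first 3 of the YY1 and ERR motifs, so these can overlap. The NRF1 letters were found in 14.1% of the 71 member windows against 2.71% of all 32851 windows, the ETS letters in 23.9% against 8.86%. The YY1 letters were found in 14.1% against 2.75% and the ERR letters in 11.3% against 4.72%. Of the members with windows, 17 of the 33 that were higher in both CMDM fractions than in both other fractions held at least 1 motif, as did 6 of the 9 called in no comparison and 12 of the 24 others. Of all 27025 genes with windows, 5314 (19.7%) held at least 1. Windows of 4 members that carry the results are printed 5′ to 3′ on the gene's strand, with the motif letters in capitals. They are those of Uqcr11 and Atp5k, both higher in CMDMs, of Ndufa1, which had the largest log2 fold change of Late CMDM against Classical mono among members over 2 CPM, and of Sdhb of complex II, which was called in neither CMDM fraction against Classical mono. Uqcr11, Atp5k and Sdhb were picked for display after their values were seen.
Uqcr11, chr10:80406772-80407071, minus strand: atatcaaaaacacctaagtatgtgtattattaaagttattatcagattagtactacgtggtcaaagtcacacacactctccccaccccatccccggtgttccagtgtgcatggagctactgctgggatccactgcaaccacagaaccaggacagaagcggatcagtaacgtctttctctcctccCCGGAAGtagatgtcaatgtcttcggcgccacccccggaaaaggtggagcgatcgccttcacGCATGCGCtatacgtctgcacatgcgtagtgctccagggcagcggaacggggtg
Atp5k, chr5:108434350-108434649, minus strand: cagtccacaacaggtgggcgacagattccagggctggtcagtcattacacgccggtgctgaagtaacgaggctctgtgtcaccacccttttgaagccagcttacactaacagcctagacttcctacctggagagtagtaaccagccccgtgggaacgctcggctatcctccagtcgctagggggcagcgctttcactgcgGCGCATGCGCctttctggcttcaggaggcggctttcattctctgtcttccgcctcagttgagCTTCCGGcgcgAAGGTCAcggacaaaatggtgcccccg
Ndufa1, chrX:37191189-37191488, minus strand: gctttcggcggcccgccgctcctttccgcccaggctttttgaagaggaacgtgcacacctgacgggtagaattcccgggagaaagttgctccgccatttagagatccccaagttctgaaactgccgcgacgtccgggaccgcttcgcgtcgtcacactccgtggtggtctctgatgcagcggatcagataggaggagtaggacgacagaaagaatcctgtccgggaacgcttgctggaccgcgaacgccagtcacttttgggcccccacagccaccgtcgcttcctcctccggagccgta
Sdhb, chr4:140961021-140961320, plus strand: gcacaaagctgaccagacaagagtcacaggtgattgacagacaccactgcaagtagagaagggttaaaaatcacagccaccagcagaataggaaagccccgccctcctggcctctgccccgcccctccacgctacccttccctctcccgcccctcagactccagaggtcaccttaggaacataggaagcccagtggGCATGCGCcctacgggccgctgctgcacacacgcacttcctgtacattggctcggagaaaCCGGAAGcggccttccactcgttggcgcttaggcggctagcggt
Uqcr11 held 1 ETS and 1 NRF1 motif, Atp5k an NRF1 motif on each strand (overlapping, since the letters are nearly a palindrome), 1 ETS and 1 ERR motif. Sdhb held 1 NRF1 and 1 ETS motif, and Ndufa1 none of the 4. A letter match is a description of these windows and not a binding site.

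The summed level of the nuclear members was higher in both CMDM fractions than in Classical mono and Resident-like, whereas most mitochondrial-genome members were called in no comparison. The 85 nuclear members summed to 6463, 6971 and 7144 CPM in Classical mono, 8468, 8787 and 9062 in Early CMDM, 8665, 8738 and 9397 in Late CMDM and 6375, 7226 and 7429 in Resident-like. Every CMDM library lay above every library of the other fractions. The mean sum was 1.28-fold higher in Early CMDM and 1.30-fold higher in Late CMDM than in Classical mono, and 1.02-fold that of Classical mono in Resident-like. A list of 5 endothelial genes (Pecam1, Cdh5, Kdr, Tie1 and Emcn, all detected) moved with this sum, at 73.7 to 78.5 CPM in Classical mono, 136 to 148 in Early CMDM, 133 to 147 in Late CMDM and 49.2 to 75.6 in Resident-like. Of the 5, 4 were higher and 1 lower in Early CMDM and 4 higher and 0 lower in Late CMDM against Classical mono, and 4 were lower in Resident-like against each CMDM fraction. The part of endothelial RNA in the members' values was not tested. The 13 mitochondrial-genome members summed to 18928 to 22559 CPM in Classical mono, 21682 to 23118 in Early CMDM, 22649 to 24788 in Late CMDM and 19329 to 26379 in Resident-like. Every pair of fractions overlapped apart from Late CMDM and Classical mono. The ratio of the mitochondrial to the nuclear sum was 3.05 ± 0.164 in Classical mono, 2.56 ± 0.0981 in Early CMDM, 2.63 ± 0.214 in Late CMDM and 3.34 ± 0.309 in Resident-like (SD, n = 3).

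**Figure D1:**
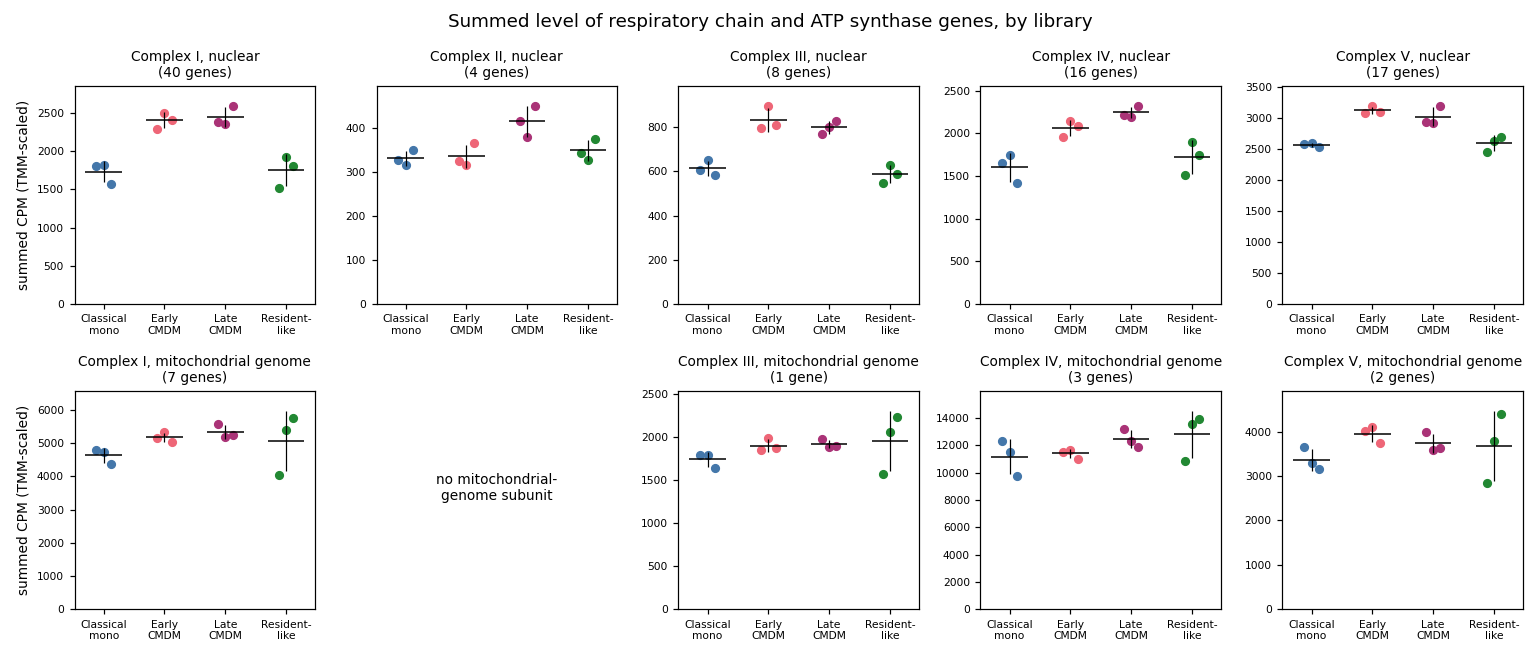
Summed CPM (TMM-scaled, linear axes from 0) of the members of each complex in the 12 libraries, nuclear genes in the top row and mitochondrial-genome genes in the bottom row. Points are libraries, horizontal bars means and vertical bars SD. For nuclear complexes I, III, IV and V the CMDM libraries lie above all Classical mono and Resident-like libraries, and complex II is highest in Late CMDM. The mitochondrial-genome sums spread most in Resident-like, where replicate 1 is lowest.

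Gene by gene (edgeR quasi-likelihood test, Benjamini-Hochberg adjustment over 22118 genes, adjusted p under 0.05), 71 of 85 nuclear and 4 of 13 mitochondrial-genome members differed among the 4 fractions, where 60.8% of all tested genes did. In Early CMDM against Classical mono, 56 of 85 nuclear members were higher and 2 lower (median log2 fold change 0.54), where 24.2% of all tested genes were higher and 20.6% lower. In Late CMDM against Classical mono, 55 were higher and 3 lower (median 0.64), against 18.1% and 17.5% of all genes. Resident-like against Early CMDM gave 2 higher and 59 lower (median -0.55; all genes 21.4% and 25.1%), and Resident-like against Late CMDM 3 higher and 53 lower (median -0.63; all genes 12.7% and 15.4%). Without Resident-like replicate 1, 2 nuclear members were higher and 49 lower against Early CMDM and 3 and 48 against Late CMDM. Without Classical mono replicate 3, 55 were higher and 2 lower in Early CMDM against Classical mono (median 0.48). In Late CMDM they were 50 and 4 (0.55). Without Late CMDM replicate 3, 48 nuclear members were higher and 2 lower in Late CMDM against Classical mono (median 0.59). Resident-like against Late CMDM then had 2 higher and 47 lower. A fixed list of 22 nuclear core subunits changed less than the rest. Of the 22, 7 were higher and 0 lower in Early CMDM against Classical mono (31.8% higher, median 0.19). In Late CMDM, 6 were higher and 1 lower (27.3% and 4.55%, median 0.10). Of the 63 other nuclear members, 49 were higher and 2 lower in each (77.8% and 3.17%, medians 0.64 and 0.77). Resident-like had 10 of the 22 lower against Early CMDM and 7 against Late CMDM, beside 49 and 46 of the 63. These comparisons share fractions and are not independent of each other.

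The other 2 comparisons, between the CMDM fractions and between the fractions on either side of them, moved few members. Late CMDM against Early CMDM had 9 nuclear members higher and 7 lower (median 0.04), where 14.4% of all genes were higher and 17.5% lower. Resident-like against Classical mono had 2 higher and 3 lower (median 0.01), where 10.8% and 12.9% of all genes were. Across nuclear members the highest mean was in Late CMDM for 47 and in Early CMDM for 31, and the lowest in Classical mono for 38 and in Resident-like for 37. The same counts were not made over all tested genes, so no share stands beside these. All 4 contrasts of a CMDM fraction with Classical mono or Resident-like were passed in that direction by 41 of the 85 nuclear members and by 1345 of all tested genes (6.08%). Among the 41 were Ndufb4c, Cox6c2 and Ndufs6b beside Ndufb4, Cox6c and Ndufs6, whose reads they may hold (described below). Such copies are counted as separate members throughout.

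**Figure D2:**
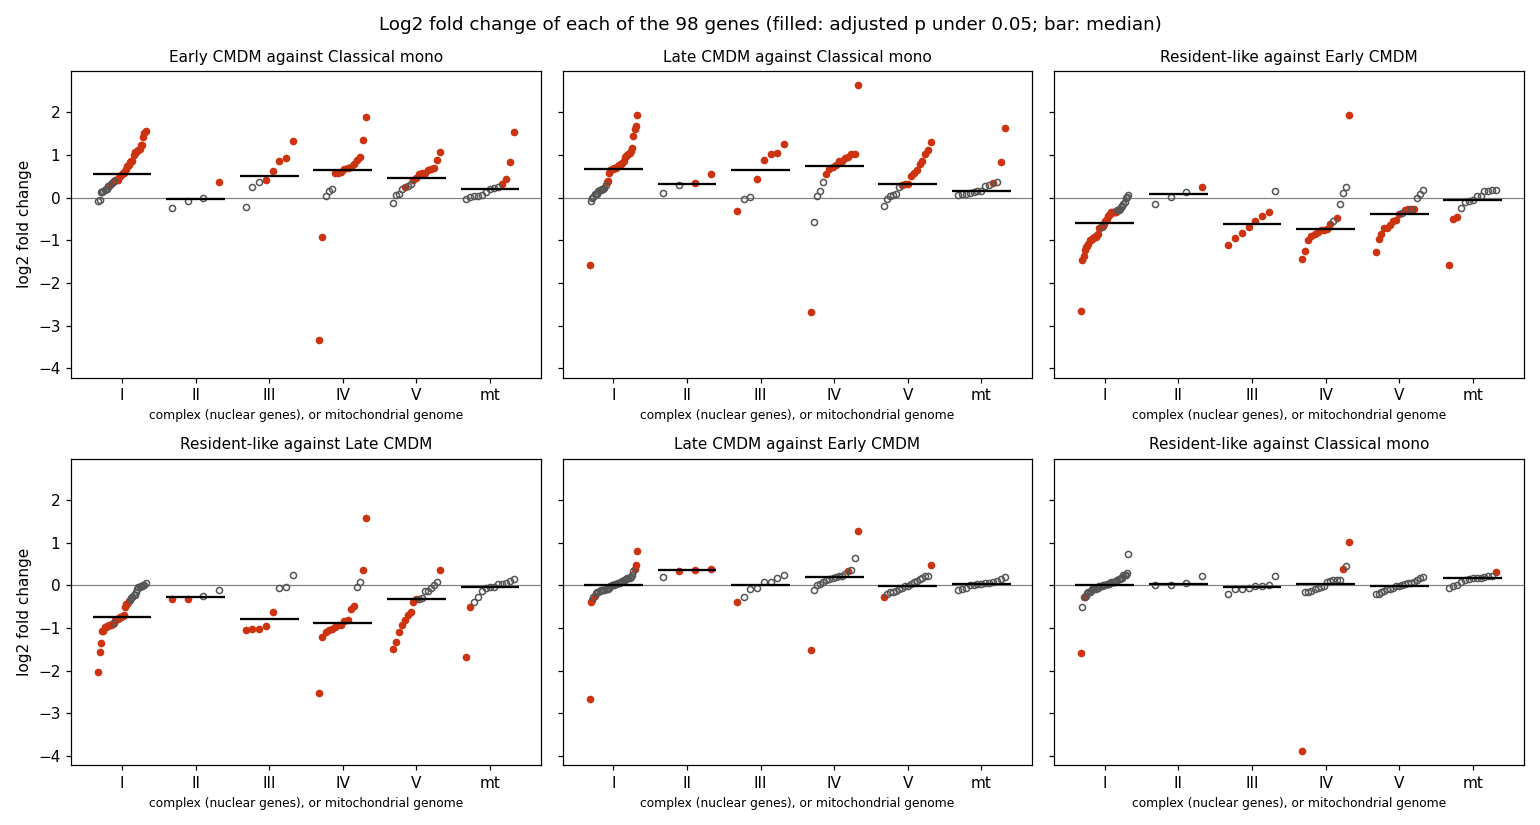
Log2 fold change (linear axis) of each of the 98 members in the 6 comparisons, by complex for nuclear genes and in 1 column (mt) for the mitochondrial genome. Filled points had an adjusted p under 0.05 and bars are medians. Nuclear complexes I, III, IV and V lie mostly above 0 for CMDMs against Classical mono and below 0 for Resident-like against CMDMs, with medians near 0 in the 2 remaining panels except for complex II in Late CMDM against Early CMDM. Scaled by the sum of 10 pan-leukocyte genes (genes that all leukocytes express) in place of TMM, 93 of 98 members were lower in that panel.

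Counts by complex are read beside the shares of all tested genes given above. Of the 40 nuclear members of complex I, 28 were higher in Early CMDM than in Classical mono and 12 were not called (median log2 fold change 0.56). In Late CMDM, 26 were higher and 1 lower (0.68). In Resident-like, 29 were lower against Early CMDM and 11 not called (-0.59) and 25 were lower against Late CMDM and 15 not called (-0.74). Ndufa1, a one-pass membrane subunit needed for assembly of the complex (chromosome X, 37187588 to 37191163, minus strand, GRCm38), measured 20.2, 23.5 and 25.2 CPM in Classical mono, 44.0, 46.2 and 61.7 in Early CMDM, 78.8, 84.3 and 101 in Late CMDM, and 14.9, 21.2 and 29.1 in Resident-like. Its level rose in 2 steps with no overlap between Classical mono, Early CMDM and Late CMDM: log2 fold change 1.14 ± 0.20 (SE; adjusted p = 0.000268) and a further 0.80 ± 0.19 (adjusted p = 0.00502), the second turned to -0.06 when scaled by pan-leukocyte genes. It was lower in Resident-like than in Late CMDM (-2.02 ± 0.20, adjusted p = 3.75e-06).

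Ndufa5, an accessory subunit of the matrix arm, measured 4.62, 5.85 and 6.09 CPM in Classical mono, 14.5, 16.2 and 16.7 in Early CMDM, 15.3, 18.9 and 19.4 in Late CMDM and 4.26, 6.77 and 7.22 in Resident-like. The CMDM libraries did not overlap the others. The log2 fold change against Classical mono was 1.52 ± 0.18 in Early CMDM and 1.69 ± 0.18 in Late CMDM (adjusted p = 4.35e-06 and 2.39e-06). Ndufb7, an accessory subunit of the membrane arm, was 0.48 ± 0.12 higher in Late than in Early CMDM (log2; adjusted p = 0.00602), a direction that turned with pan-leukocyte scaling. Ndufs6b, a symbol of 348 bases on chromosome 7, had log2 fold changes of 1.55 and 1.44 in Early and Late CMDM against Classical mono at levels of 0.485 to 2.53 CPM. Of its 31-base words, 45.3% also occur in Ndufs6, a zinc-binding accessory subunit, so reads of the parent gene may be counted on it. The same holds for Ndufb4c (100% shared with Ndufb4), Cox6c2 (61.7% shared with Cox6c) and Ndufa11b (26.6% shared with Ndufa11), which were singled out after their values were seen.

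Several core subunits of complex I were not called. Ndufs3, Ndufs8 and Ndufv2, core subunits of the matrix arm, were called in no comparison. Ndufs8 measured 67.9 to 72.3 CPM in Classical mono, 61.5 to 69.6 in Early CMDM, 59.8 to 74.8 in Late CMDM and 64.5 to 68.1 in Resident-like. Ndufv1, which binds NADH, was higher in Early CMDM than in Classical mono by 0.42 on the log2 scale (adjusted p = 0.00423). Ndufa10, an accessory subunit, was higher in Early CMDM than in Late CMDM, with 73.0, 88.1 and 91.2 against 62.0, 62.4 and 67.4 CPM (log2 fold change -0.40 ± 0.10, adjusted p = 0.00536). Ndufs1, the largest iron-sulfur subunit, was lowest in Resident-like at 30.1, 30.2 and 30.6 CPM, and was lower there than in Early CMDM (log2 fold change -0.44, adjusted p = 0.00117). Its difference from Classical mono (-0.28, adjusted p = 0.0423) was lost without any 1 of the 6 libraries (adjusted p 0.0762 to 0.102). Ndufs7 was higher in Late CMDM than in Classical mono (log2 fold change 0.37, adjusted p = 0.0102), a call lost without Late CMDM replicate 3 (adjusted p = 0.0594).

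In complex II, 1 of the 4 genes was higher in Early CMDM than in Classical mono (25%, near the 24.2% of all tested genes). Against Classical mono, 2 were higher in Late CMDM (50%, beside 18.1%). In Late against Early CMDM 3 were higher (75%, beside 14.4%), and all 3 turned with pan-leukocyte scaling. The median log2 fold changes in these comparisons were -0.04, 0.32 and 0.35. Sdha, the flavoprotein that oxidizes succinate, measured 72.6, 74.5 and 86.4 CPM in Classical mono, 73.7, 77.2 and 81.4 in Early CMDM, 93.6, 99.8 and 101 in Late CMDM and 76.2, 78.7 and 80.8 in Resident-like. All 3 Late CMDM libraries lay above all others, with a log2 fold change of 0.34 ± 0.09 against Early CMDM (adjusted p = 0.00847; -0.54 with pan-leukocyte scaling). Sdhb, the iron-sulfur subunit, was 0.36 ± 0.10 higher and Sdhd, a membrane anchor, 0.38 ± 0.12 higher in Late than in Early CMDM (log2; adjusted p = 0.0101 and 0.0212; -0.51 and -0.49 with pan-leukocyte scaling). Sdhc, the other anchor, was higher in both Early and Late CMDM than in Classical mono (0.36 and 0.54, adjusted p = 0.0113 and 0.00071). The calls between the CMDM fractions were close to the threshold. Without Early CMDM replicate 2 the adjusted p was 0.0518 for Sdha, 0.0688 for Sdhb and 0.109 for Sdhd. Without Late CMDM replicate 3 it was 0.0604 for Sdhb and 0.116 for Sdhd, and without Early CMDM replicate 1 or Late CMDM replicate 1 it was 0.107 or 0.0511 for Sdhd.

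In complex III, of 8 nuclear members, 5 were higher in Early CMDM than in Classical mono and 3 were not called (median log2 fold change 0.51) and 5 were higher and 1 lower in Late CMDM (0.65). In Resident-like, 7 were lower against Early CMDM and 1 not called (-0.63) and 5 were lower against Late CMDM and 3 not called (-0.79). Uqcr11, a small accessory subunit, measured 31.6, 33.7 and 37.8 CPM in Classical mono, 76.9, 83.8 and 99.0 in Early CMDM, 81.2, 82.8 and 83.3 in Late CMDM and 32.7, 37.7 and 49.4 in Resident-like. No CMDM library overlapped a library of the other fractions. The log2 fold change against Classical mono was 1.33 ± 0.14 and 1.26 ± 0.14 in Early and Late CMDM (adjusted p = 7.51e-07 and 2.44e-06). Uqcrc1, a core protein facing the matrix, measured 181, 189 and 191 CPM in Early CMDM against 129 to 153 in the 9 other libraries (0.40 against Classical mono, adjusted p = 0.00179). The Rieske iron-sulfur protein Uqcrfs1 was lower in Late CMDM than in Classical mono (-0.32, adjusted p = 0.0197; 0.68 with pan-leukocyte scaling). That call was lost without Classical mono replicate 2, Late CMDM replicate 1 or Late CMDM replicate 3 (adjusted p = 0.0702, 0.0826 and 0.0666). Uqcrc2, the other core protein, was lower in Resident-like than in Early CMDM (-0.33, adjusted p = 0.0232). That call was lost without Early CMDM replicate 2, Resident-like replicate 1 or Resident-like replicate 2 (adjusted p = 0.0985, 0.112 and 0.0781).

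Of the 16 nuclear members of complex IV, 11 were higher and 2 lower in Early CMDM than in Classical mono (median log2 fold change 0.64) and 11 were higher and 1 lower in Late CMDM (0.74). In Resident-like, 11 were lower and 1 higher against Early CMDM (-0.74) and 12 were lower and 2 higher against Late CMDM (-0.89). Cox4i1, the ubiquitous form of subunit 4, had the highest level per kilobase of transcript of all nuclear members in Late CMDM and was called in no comparison. It measured 450.5 to 592 CPM in Classical mono, 538 to 549 in Early CMDM, 583 to 622 in Late CMDM and 547 to 605 in Resident-like. Cox5b, a zinc-binding subunit, rose from 87.0, 98.9 and 98.9 CPM in Classical mono to 136, 159 and 163 in Early CMDM and 152, 154 and 162 in Late CMDM (log2 fold changes 0.69 and 0.72). Cox5a was higher in Late CMDM than in Classical mono (0.55, adjusted p = 0.00106). Cox6a1, Cox6b1, Cox7a2 and Cox8a, the broadly expressed forms of subunits that also come in tissue isoforms, were each higher in both CMDM fractions than in both other fractions. With offsets for transcript length and GC content (described with transcript length), Cox6a1 in Resident-like against Early CMDM moved from -0.48 to -0.15 (adjusted p = 0.00673 and 0.295). Their log2 fold changes against Classical mono were 0.61, 0.71, 0.95 and 0.68 in Early CMDM and 0.68, 0.92, 0.94 and 0.86 in Late CMDM. Ndufa4, named for complex I and now assigned to complex IV, did the same (0.74 and 0.85).

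The isoforms best known from muscle, testis or low oxygen had low levels and patterns of their own. Cox6a2, the heart and skeletal muscle form of subunit 6a, measured 11.6, 13.7 and 20.5 CPM in Classical mono, 0.76, 1.39 and 2.35 in Early CMDM, 2.01, 2.15 and 2.90 in Late CMDM and 0.647, 1.08 and 1.33 in Resident-like. Every Classical mono library was above every other library. The log2 fold change against Classical mono was -3.33 ± 0.32 in Early CMDM, -2.69 ± 0.30 in Late CMDM and -3.89 ± 0.33 in Resident-like (adjusted p = 4.73e-07, 4.59e-06 and 3.97e-07). Plasmacytoid dendritic cell genes (Siglech, Ccr9, Klk1, Pacsin1 and Cd300c, chosen after the values of Cox6a2 were seen) summed to 654 to 1259.6 CPM in Classical mono, 35.3 to 38.2 in Early CMDM, 49.3 to 64.8 in Late CMDM and 35.7 to 43.5 in Resident-like. In each of these 3 fractions 5 of 5 were lower than in Classical mono. The 8 skeletal muscle genes summed to 58.5 to 73.4, 41.7 to 105, 54.5 to 103 and 51.6 to 58.6 CPM in the same order. The part of either in the Cox6a2 values was not tested.

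Cox7a1, the muscle form of subunit 7a, measured 0.165, 0.185 and 0.39 CPM in Classical mono, 0.433, 0.759 and 0.76 in Early CMDM, 1.51, 1.62 and 1.64 in Late CMDM and 0.182, 0.216 and 0.412 in Resident-like. These values rest on few raw counts, 3 to 7 per library in Classical mono and Resident-like and 19 to 27 in Late CMDM. Late CMDM did not overlap the rest. Its log2 fold change was 2.65 ± 0.41 against Classical mono (adjusted p = 8.65e-05) and 1.29 ± 0.35 against Early CMDM (adjusted p = 0.0102, and 0.0622 without Early CMDM replicate 1). Of 7 skeletal muscle genes tested, 3 were higher and 0 lower in Late CMDM against Classical mono (median 0.905), and 0 and 0 against Early CMDM. In Resident-like against Late CMDM 0 were higher and 3 lower (-1.18), though the muscle sums given above overlapped. The part of muscle RNA in the Cox7a1 values was not tested. Cox6b2, the testis form of subunit 6b, was highest in Resident-like at 9.87, 10.6 and 10.8 CPM against 2.47 to 7.15 in the 9 other libraries. It was 1.02 ± 0.20 above Classical mono and 1.58 ± 0.21 above Late CMDM on the log2 scale (adjusted p = 0.00101 and 3.47e-05). Cox7a2l, which helps join complexes III and IV into supercomplexes, was likewise highest in Resident-like, at 274, 292 and 334 CPM against 203, 236 and 246 in Classical mono. The log2 fold change was small (0.39 ± 0.11, adjusted p = 0.0131, and 0.0738 without Resident-like replicate 3).

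Ndufa4l2, a relative of Ndufa4 induced in low oxygen, separated the earlier from the later fractions. It measured 4.63, 6.38 and 6.52 CPM in Classical mono, 9.43, 11.6 and 15.7 in Early CMDM, 1.75, 1.88 and 2.16 in Late CMDM and 1.70, 1.78 and 2.35 in Resident-like. Early CMDM lay above all other libraries. The log2 fold change of Late against Early CMDM was -2.66 ± 0.23 (adjusted p = 4.29e-07), and Late CMDM and Resident-like overlapped. Cox4i2, a form of subunit 4 known from lung and from low oxygen, was also highest in Early CMDM, at 0.76, 1.01 and 1.24 CPM against 0.122 to 0.539 in the other 9 libraries (1.88 ± 0.46 against Classical mono, adjusted p = 0.00313). Cox4i2 had only 12 to 20 raw counts per library in Early CMDM and 2 to 9 in the other 9 libraries. Its difference from Late CMDM (-1.52, adjusted p = 0.0173) was lost without Early CMDM replicate 1 or 2 or Late CMDM replicate 2 (adjusted p = 0.08, 0.0508 and 0.0953). Beside these 2 genes, 5 pericyte genes (chosen after the values of Cox4i2 and Ndufa4l2 were seen) summed to 22.9 to 34.7 CPM in Classical mono, 55.5 to 64.1 in Early CMDM, 16.0 to 20.2 in Late CMDM and 13.1 to 36.3 in Resident-like. Of the 5, only 2 were higher and 1 was lower in Early CMDM against Classical mono (median log2 fold change 0.11). Against Early CMDM, 4 were lower in Late CMDM and 5 in Resident-like, and 0 were higher in either. The keratinocyte sum was also highest in Early CMDM, and the part of such cells in either gene was not tested.

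**Figure D3:**
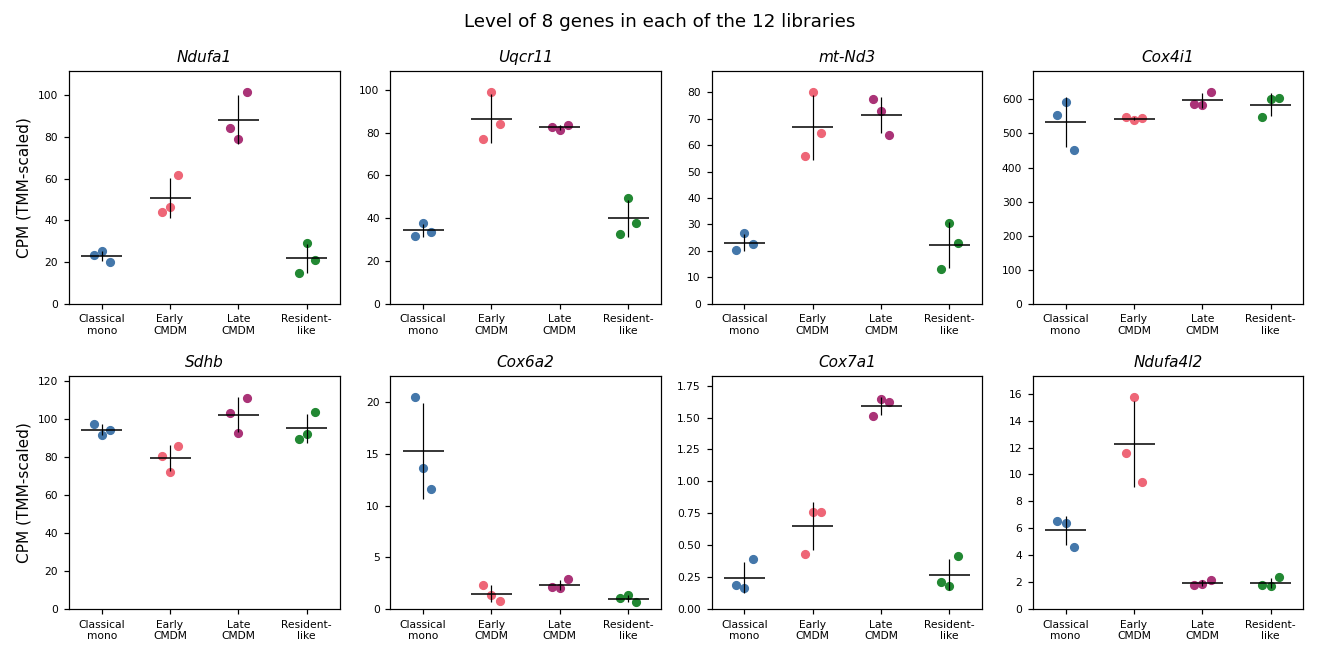
CPM (TMM-scaled, linear axes from 0) of 8 members in the 12 libraries; points are libraries, horizontal bars means and vertical bars SD. Ndufa1, Uqcr11 and mt-Nd3 are high in both CMDM fractions. Cox4i1 overlaps between every pair of fractions apart from Late and Early CMDM. Sdhb is lowest in Early CMDM, Cox6a2 is high in Classical mono, Cox7a1 in Late CMDM and Ndufa4l2 in Early CMDM.

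In complex V, of 17 nuclear members, 11 were higher in Early CMDM than in Classical mono and 6 were not called (median log2 fold change 0.46) and 11 were higher in Late CMDM and 6 not called (0.32). In Resident-like, 12 were lower against Early CMDM and 5 not called (-0.38) and 9 were lower and 1 higher against Late CMDM (-0.32). Atp5k, subunit e of the membrane part, measured 5.55, 5.85 and 5.91 CPM in Classical mono, 10.9, 12.3 and 13.2 in Early CMDM, 13.0, 14.7 and 14.8 in Late CMDM and 3.56, 4.59 and 7.04 in Resident-like. The CMDM libraries lay above all others (log2 fold changes against Classical mono 1.07 ± 0.19 and 1.30 ± 0.19, adjusted p = 0.000201 and 4.84e-05). Atp5c1, the gamma subunit in the central stalk of the catalytic part, was called in no comparison and measured 168 to 210.1 CPM over all 12 libraries. Atp5b, the catalytic beta subunit, was 0.25 higher in Early CMDM than in Classical mono (log2; adjusted p = 0.0498) and Atp5a1, the alpha subunit, lower in Resident-like than in Early CMDM (-0.29, adjusted p = 0.0165). These small calls did not hold without single libraries. Adjusted p for Atp5b was 0.148 and 0.166 without Classical mono replicates 1 and 2, and 0.092, 0.0924 and 0.0619 without Early CMDM replicates 1, 2 and 3. For Atp5a1 it was 0.0583 without Early CMDM replicate 1 and 0.094 without Resident-like replicate 2.

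Atp5e, the small epsilon subunit, rose in both CMDM fractions against Classical mono (0.57 and 0.78). Atp5d, the delta subunit beside it, had its highest mean in Resident-like, at 225, 235 and 240.3 CPM against 178, 179 and 187 in Late CMDM (0.36 ± 0.09, adjusted p = 0.00727; -0.44 with pan-leukocyte scaling). The proton-carrying c ring has 3 genes for the same mature protein. Atp5g1 was higher in Early and Late CMDM than in Classical mono (0.67 and 0.51), Atp5g2 in Early CMDM (0.46, adjusted p = 0.00491), and Atp5g3, the most abundant of the 3 per kilobase, in Late CMDM (0.30, adjusted p = 0.0326). The Atp5g3 call was lost without Classical mono replicate 2 or 3 or Late CMDM replicate 1 or 3 (adjusted p = 0.0741, 0.0911, 0.0571 and 0.163). The inhibitor of the ATP synthase, listed in the table as Atpif1 and so outside the symbols chosen, measured 38.4, 42.8 and 49.6 CPM in Classical mono, 111, 118 and 152 in Early CMDM, 90.6, 101 and 104 in Late CMDM and 54.8, 71.3 and 81.9 in Resident-like. Classical mono lay below all others (log2 fold change 1.54 in Early CMDM against Classical mono, adjusted p = 6.19e-07).

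In the mitochondrial genome, 9 of 13 genes were called in no comparison: mt-Nd1, mt-Nd2, mt-Nd5, mt-Cytb, mt-Co1, mt-Co2, mt-Co3, mt-Atp6 and mt-Atp8. mt-Co1, the catalytic subunit of complex IV, measured 6035 to 7260.3 CPM in Classical mono, 6549 to 6885 in Early CMDM, 7067 to 7976 in Late CMDM and 6573 to 8383 in Resident-like. The genes called all encode complex I subunits. Early CMDM against Classical mono had 4 of 13 higher and 0 lower (median log2 fold change 0.21), or 30.8% higher beside 24.2% of all tested genes. Late CMDM against Classical mono had 3 and 0 (0.16), or 23.1% beside 18.1%, and Late against Early CMDM 0 and 0 (0.04). Resident-like against Classical mono had 1 higher and 0 lower (0.17), or 7.69% higher beside 10.8% of all tested genes. Resident-like against Early CMDM had 0 higher and 3 lower (-0.05), or 23.1% lower beside 25.1%. Resident-like against Late CMDM had 0 and 2 (-0.04), or 15.4% lower beside 15.4%. These shares were near or below those of all tested genes. In each comparison and direction with a count of 0 by edgeR, the count was also 0 at an unadjusted p under 0.05 and 0 by DESeq2 at an adjusted p under 0.05. The mitochondrial-genome genes took 1.81% to 2.48% of all counts in the 12 libraries.

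mt-Nd3 (chromosome M, 9459 to 9806, plus strand), a membrane subunit of complex I, had the largest log2 fold change of the 13 in Early and in Late CMDM against Classical mono. It measured 20.3, 22.5 and 26.6 CPM in Classical mono, 55.8, 64.5 and 80.1 in Early CMDM, 63.9, 72.9 and 77.5 in Late CMDM and 13.3, 23.0 and 30.7 in Resident-like. The CMDM libraries did not overlap the others. Its log2 fold changes against Classical mono were 1.53 ± 0.23 and 1.63 ± 0.23 (adjusted p = 0.000105 and 9.73e-05). As counted, its level per kilobase, 66.4 CPM in Classical mono, was below that of the other 12, which reached 4474 for mt-Atp6. A nuclear copy held 49.7% of the counts of mt-Nd3 and copy together (described below). The ranking leaves those counts out, so it may not hold for the gene itself. mt-Nd6, the only one of these genes on the light strand, measured 39.9, 41.2 and 44.2 CPM in Classical mono, 71.5, 74.6 and 76.6 in Early CMDM, 70.6, 75.6 and 77.1 in Late CMDM and 44.2, 55.7 and 56.8 in Resident-like. The CMDM libraries lay above all others (0.83 ± 0.10 in each CMDM fraction against Classical mono, adjusted p = 5.68e-06 and 9.18e-06). mt-Nd4 and mt-Nd4l, which share an RNA, were 0.31 and 0.43 higher in Early CMDM than in Classical mono (adjusted p = 0.0426 and 0.0243). Both calls were lost without Classical mono replicate 3 (adjusted p = 0.131 and 0.0887) or Early CMDM replicate 2 (0.104 and 0.0717), and that of mt-Nd4 also without Classical mono replicate 1 or Early CMDM replicate 1 (0.0553 and 0.0758).

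Reads of 6 mitochondrial-genome genes were shared with a copy of mitochondrial DNA in nuclear chromosome 1. The copies of mt-Atp6, mt-Co2, mt-Co3 and mt-Nd3 held 50.1%, 49.9%, 50% and 49.7% of the counts of gene and copy together, and that of mt-Nd4 held 35.2%. The copy of mt-Co1, which covers only part of that gene, held 15.7%. The first bases of mt-Nd3 and of its copy Gm28438 (chr1:24612775-24613119, minus strand, GRCm38) are shown because they carry the one base that sets the 2 apart, in capitals:
mt-Nd3: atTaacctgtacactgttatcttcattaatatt
Gm28438: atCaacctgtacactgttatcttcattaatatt
The substitution T3C, counted from 1 at the first base of mt-Nd3, was the only difference over 345 aligned bases. With the counts of each copy added to its gene, mt-Nd3 kept log2 fold changes of 1.47 and 1.59 in Early and Late CMDM against Classical mono (adjusted p = 0.000125 and 0.000102). mt-Nd4 in Late CMDM against Classical mono had an adjusted p of 0.0504 in place of 0.0306.

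Counts and medians of the nuclear members were split by transcript length. In Late CMDM against Classical mono, 37 of 42 members under 750 nucleotides were higher (median log2 fold change 0.79), 7 of 11 from 750 to 1000 (0.64), 6 of 24 from 1000 to 2000 (0.10) and 5 of 8 above 2000 (0.42). Spearman's rho between length and log2 fold change was -0.58 across the 85 genes, which share the 6 libraries. Other protein-coding genes under 750 nucleotides are given beside them. Of these, 34.7% of 424 were higher and 10.4% lower, with a median of 0.35, against a median of -0.02 for genes above 2000 nucleotides. In Resident-like against Late CMDM, 34 of 42 members under 750 nucleotides were lower (median -0.90), beside 29.2% of the other genes of that length (median -0.25). The part of transcript length in the result was examined by a fit with per-library offsets for length and GC content, chosen after seeing the data. It left 55 nuclear members higher and 5 lower in Early CMDM against Classical mono, 58 and 3 in Late CMDM, and 3 and 52 in Resident-like against Late CMDM, with medians of 0.37, 0.58 and -0.56. Counts changed more in Late against Early CMDM, with 17 higher and 5 lower in place of 9 and 7 (median 0.15), and in Resident-like against Early CMDM, with 7 higher and 47 lower in place of 2 and 59 (median -0.41). Of 125 called changes of 40 named members, 22 were no longer called in that fit and 0 changed sign. Among those given above were Uqcrc1 in Late CMDM and in Resident-like against Early CMDM (adjusted p = 0.0525 and 0.0661), and Uqcrfs1 (0.0736). Others were Atp5e and Atp5g2 in Early CMDM against Classical mono (0.0522 and 0.1), Atp5g3 (0.0653), Atp5a1 (0.183) and Ndufs1 in Resident-like against Classical mono (0.126).

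**Figure D4:**
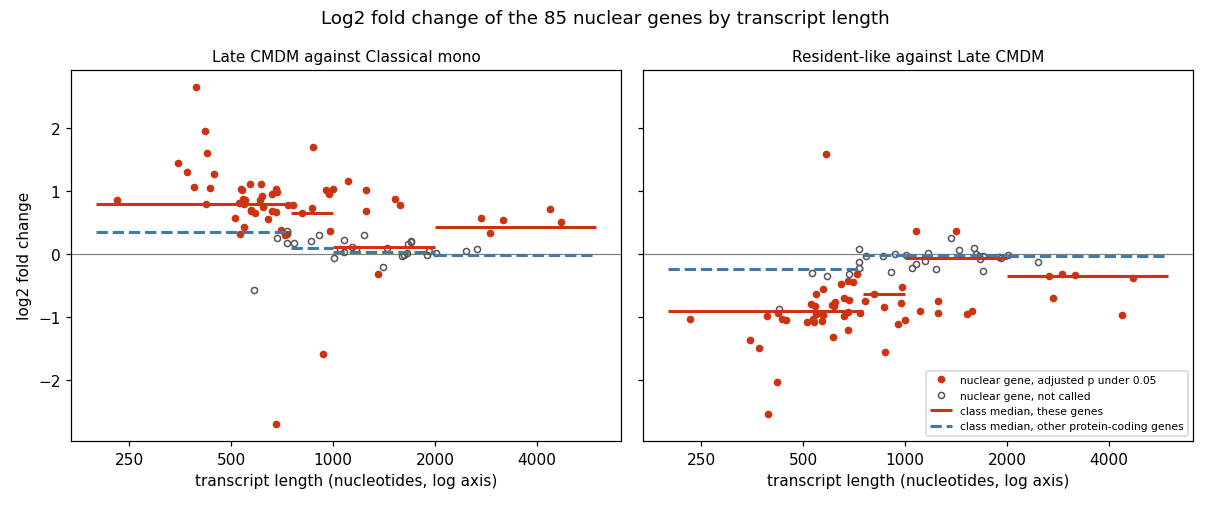
Log2 fold change of the 85 nuclear members (linear axis) against the length of 1 annotated transcript per gene (log axis), filled where the adjusted p was under 0.05. Solid bars are medians of the members and dashed bars medians of the other protein-coding genes in the same length class. Members under 1000 nucleotides lie highest in Late CMDM against Classical mono (medians 0.79 and 0.64) and lowest in Resident-like against Late CMDM (-0.90 and -0.63).

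Other mitochondrial gene lists are read against all tested genes, of which 24.2% were higher and 20.6% lower in Early CMDM, and 18.1% higher and 17.5% lower in Late CMDM, than in Classical mono. Of 9 genes for cytochrome c and carriers, 1 was higher and 1 lower in Early CMDM and in Late CMDM against Classical mono (11.1% each way in both). Vdac1, an outer membrane channel, had log2 fold changes of 1.15 and 0.60. Ucp2, a carrier of the uncoupling protein family, was lower (-1.29 and -0.72, adjusted p = 1.13e-06 and 0.000564), at 259.9 to 359 CPM in Early CMDM against 649 to 867 in Classical mono. Cycs, Cyc1 (the cytochrome c1 of complex III) and Slc25a5, which carries ADP and ATP, were called in no comparison. Slc25a4 was called in Resident-like against Classical mono (0.29, adjusted p = 0.0382), and that was lost without any of 5 of the 6 libraries (adjusted p up to 0.13). Of 46 assembly factors, 16 were higher and 6 lower in Early CMDM and 16 and 5 in Late CMDM against Classical mono (34.8% higher in each, and 13% and 10.9% lower). They were led by Acad9 (1.09 in Early CMDM), a complex I assembly factor, and Coa6 (1.00 in Late CMDM), a complex IV assembly factor, and the copper chaperone Cox17 was lower in Early CMDM (-0.85).

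Of the 78 mitochondrial ribosome genes, 28 were higher and 0 lower in Early CMDM (35.9% higher, beside 24.2% of all genes) and 23 higher and 2 lower in Late CMDM (29.5% and 2.56%, beside 18.1% and 17.5%) against Classical mono (medians 0.22 and 0.20). Resident-like against Late CMDM had 0 higher and 22 lower (28.2%, beside 15.4% of all genes; median -0.19). At an unadjusted p under 0.05, 0 of the 78 were lower in Early CMDM and 2 higher in Resident-like against Late CMDM by the same test, and DESeq2 called 0 and 0 at an adjusted p under 0.05. Of 24 import genes tested, 9 were higher and 1 lower in Early CMDM and 10 and 1 in Late CMDM (37.5% and 41.7% higher, 4.17% lower in each), led in both by Tomm7 (1.05 and 1.12), a small subunit of the outer membrane translocase. Of 23 genes for maintenance and expression of mitochondrial DNA, 6 were higher and 1 lower in Early CMDM and 3 and 1 in Late CMDM. The shares higher, 26.1% and 13%, were near or below the 24.2% and 18.1% of all genes. Among them was Slirp, which stabilizes mitochondrial mRNA (log2 fold changes 1.07 and 1.25). Tfam, the packaging factor of mitochondrial DNA, measured 12.3 to 14.8 CPM in Classical mono, 13.0 to 13.8 in Early CMDM, 11.3 to 13.9 in Late CMDM and 8.79 to 10.5 in Resident-like. The last was lower than Classical mono (-0.51, adjusted p = 0.00829). Polrmt, the mitochondrial RNA polymerase, was lower in Resident-like than in Early CMDM (-0.83, adjusted p = 0.0025; -0.39 and 0.11 with the length and GC offsets).

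Among 16 regulators tested, 6 were higher and 6 lower in Early CMDM and 4 and 3 in Late CMDM against Classical mono. That is 37.5% each way in Early CMDM, beside 24.2% and 20.6% of all genes, and 25% and 18.8% in Late CMDM, near the 18.1% and 17.5% of all genes. The coactivator Ppargc1b rose from 3.51, 4.07 and 5.30 CPM in Classical mono to 7.15, 7.40 and 7.98 in Early CMDM and 7.96, 9.91 and 9.97 in Late CMDM (0.80 and 1.11, adjusted p = 0.00135 and 0.000104). Ppargc1a stayed at 0.365 to 1.33 CPM in the 12 libraries and was called in no comparison. Esrra, an estrogen-related receptor, was highest in Early CMDM, at 35.3, 38.9 and 39.2 CPM against 22.2 to 28.7 in the other 9 libraries (0.65 against Classical mono, adjusted p = 8.38e-05). Nrf1 and Gabpa, whose motifs were searched above, were called in no comparison. Hif1a, the oxygen-regulated factor, was highest in Classical mono at 131, 149.9 and 223 CPM and lowest in Resident-like at 71.2, 74.6 and 79.8 (-1.16, adjusted p = 3.25e-05).

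Of 19 genes of the TCA cycle and pyruvate dehydrogenase, 7 were higher and 2 lower in Early CMDM and 4 and 2 in Late CMDM against Classical mono. The shares higher were 36.8%, beside 24.2% of all genes, and 21.1%, near the 18.1% of all genes. Cs, citrate synthase, was highest in Early CMDM, at 142, 150.4 and 154 CPM against 80.0 to 104 in the other 9 libraries (0.68 against Classical mono, adjusted p = 1.16e-05). Idh2, the mitochondrial isocitrate dehydrogenase, was highest in Late CMDM at 97.4, 112 and 122 CPM against 39.8, 42.5 and 49.7 in Classical mono (1.33, adjusted p = 3.98e-07). Acod1, which makes itaconate, an inhibitor of complex II, was lower in Early and Late CMDM than in Classical mono (-1.29 and -1.56, adjusted p = 4.44e-05 and 1.35e-05).

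These directions are relative to the bulk of the transcripts. The 10 pan-leukocyte genes were lower in Early and Late CMDM than in Classical mono, 10 and 8 of 10 past the test (median log2 fold changes -1.81 and -1.13). Scaled to their sum, the median of all genes moved to 1.85 in Early CMDM and 0.98 in Late CMDM against Classical mono and to -0.85 in Late against Early CMDM. The median of the nuclear members stood 0.57, 0.65 and 0.01 from it, beside 0.56, 0.66 and 0.02 with TMM. With that scaling the log2 fold change of Late against Early CMDM was below 0 for Ndufa1, Ndufb7, Sdha, Sdhb, Sdhd and Cox5a, which were higher in Late CMDM with TMM. It was also of the opposite sign for Atp5d in Resident-like against Late CMDM and for Uqcrfs1 in Late CMDM against Classical mono. Other cell type lists differed between these fractions as well. In Late CMDM against Classical mono, the keratinocyte sums overlapped, with 2 of 6 genes higher (median log2 fold change 0.33). In that comparison 6 of 6 fibroblast genes (-3.23), 5 of 5 plasmacytoid dendritic cell genes (-4.59) and 5 of 5 T cell genes (-2.91) were lower, and 4 of 5 endothelial genes higher (1.12). In Early CMDM against Classical mono, 6 of 6 keratinocyte genes were higher (2.95) and 5 of 5 T cell genes lower (-2.66). The part of RNA from other cells in the members' values was not tested.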

How the data were processed

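RNA-seq of 12 libraries (4 sorted fractions, 3 each) was analysed from a table of raw counts per gene symbol, which the authors made before deposit by trimming reads with cutadapt 4.1, aligning them on 1 strand with Bowtie2 2.4.5 to reference transcripts of GRCm38, and summing reads by symbol. Near-identical copies therefore share reads. Libraries held 12537178 to 19844113 counts, which, with the 3 libraries per fraction, set the precision. The members and all gene lists were chosen with earlier results of these data known.

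Symbols were filtered with filterByExpr (22118 tested), scaled by TMM and tested with edgeR 4.0.16 (quasi-likelihood, robust) in R 4.3.3, with all 12 libraries in 1 fit, 6 pairwise comparisons and a test of any difference, and Benjamini-Hochberg adjusted p-values under 0.05 over all tested symbols. Each adjusted p in the text is from this test unless another fit is named. Genes named were all mitochondrial-genome members, core subunits, tissue isoforms, the 3 largest non-overlapping changes per comparison and direction, preset regulators and carriers, and the leading gene of each list; others are said to be chosen after their values were seen.

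Deviations of same-numbered libraries from their fraction means correlated weakly, mostly above 0 (r from -0.0987 to 0.248). Alternatives were other scalings and filters, DESeq2 1.42.0, a replicate block, fits within 6 libraries, and each library left out. 1 member is not reported here by name.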

Additional observations from a re-analysis of the deposited data

How the results depend on the processing

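The number of members called was 62 (Early CMDM against Classical mono), 61 (Late CMDM against Classical mono), 16 (Late against Early CMDM), 6 (Resident-like against Classical mono), 64 (Resident-like against Early CMDM), 58 (Resident-like against Late CMDM) and 75 (any difference). Scaling to the pan-leukocyte genes gave 98, 95, 93, 5, 97, 97 and 98, and turned 11 of the 125 called changes of named members. Their log2 fold changes became -0.439 for Atp5d and -0.444 for Cox7a2l in Resident-like against Late CMDM, -1.41 for Sdhb in Resident-like against Early CMDM, 0.938 for Cox6b2 in Early CMDM and 0.68 for Uqcrfs1 in Late CMDM against Classical mono. In Late against Early CMDM they became -0.534 for Cox5a, -0.0571 for Ndufa1, -0.402 for Ndufb7, -0.538 for Sdha, -0.512 for Sdhb and -0.491 for Sdhd. This scaling moves all genes together by its construction. At an adjusted p under 0.01, Late against Early CMDM had 7 members called and Resident-like against Classical mono 3. Leaving out 1 library gave 8 to 16 members in Late against Early CMDM (8 without Early CMDM replicate 2, and 10 without Early CMDM replicate 1, Late CMDM replicate 1 or Late CMDM replicate 3) and 3 to 8 in Resident-like against Classical mono (3 without Resident-like replicate 3); fewer samples are fitted then. Of the 125 changes, 39 were lost without some 1 library. With the replicate number as a block, 66, 64, 17, 7, 67, 62 and 76 members were called, and none of the 125 changes was lost. The labels do not say whether the numbers pair the libraries. DESeq2 lost 1 of the 125. The length and GC offsets and the added copies of mitochondrial DNA were chosen after seeing the data.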
